A study of Mus musculus with 6 samples.

Results

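The insulin-like growth factor (IGF) axis was followed through 10 genes, chosen by symbol: the ligand genes Igf1 and Igf2, the receptor genes Igf1r and Igf2r, and the binding protein genes Igfbp2, Igfbp3, Igfbp4, Igfbp5, Igfbp6 and Igfbp7. All 10 were found among the 54532 genes of the deposited table. IGF1 and IGF2 are secreted peptides that signal through the tyrosine kinase receptor encoded by Igf1r, which also pairs with the insulin receptor. The Igf2r product takes up IGF2 for degradation and, as the cation-independent mannose 6-phosphate receptor, carries enzymes to the lysosome. The binding proteins hold the ligands outside the cell, and proteases such as pappalysin release them. Macrophages are a known source of IGF1, whereas mesenchymal cells make much of the binding protein in many tissues.

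RNA was sequenced from bone marrow-derived macrophages, cells grown in culture from marrow of C57BL/6 mice aged 32 to 34 weeks. The XKO group (Xbp1ΔMf) lacked Xbp1 in macrophages by its label, and the XWT group (Xbp1FL/FL) carried the floxed alleles. The Xbp1 product is a transcription factor that raises secretory capacity during endoplasmic reticulum stress. Cells of both groups were primed with lipopolysaccharide, a bacterial product, and then spent 48 h in medium conditioned by hepatocytes of wild-type mice. Each group had 3 libraries, and the comparison asks how the loss of Xbp1 changed transcripts of macrophages exposed to hepatocyte products. The labels name neither the driver of the deletion nor the animals or cultures behind each library. All p-values therefore rest on a spread between samples that could be technical.

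The libraries held 29965384 to 30184033 counts in XKO and 28354866 to 30891729 counts in XWT. Xbp1 stood at 77.5 ± 1.58 CPM in XKO and 149 ± 15.1 CPM in XWT (SD, n = 3 each; CPM, counts per 1e+06 reads of the scaled library). Its log2 fold change was -0.94 (standard error 0.077, edgeR adjusted p = 1.93e-06). Because exons outside the deleted part are counted too, this is a partial check of the genotype. Of 11 macrophage markers, none was at 0 in all libraries, and their summed level was 27664 to 29523 CPM in XKO and 43077 to 51157 CPM in XWT, much of it from Lyz2. A total of 4 fell, Lyz2 (log2 fold change -1.13) and the complement genes C1qb (-0.69), C1qc (-0.72) and C1qa (-0.72), and the other 7 were not called (median of the list -0.19). Over all tested genes 7.99% were called lower and 6% higher. Without XWT 3, 8 of the macrophage markers were lower and 1 higher. The XWT libraries varied more among themselves than the XKO libraries, with a chi-square per gene of 19.3 to 21.7 between XWT pairs and 2.80 to 4.54 between XKO pairs.

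The sequences directly upstream of the start sites are shown for the 4 members whose levels differed between the groups, because they are the DNA on which a transcription factor such as XBP1 could act. They come from RefSeq (GRCm38.p6), which had an upstream window for all 10 members, and the table's coordinates of all 10 were those of GENCODE M21 on GRCm38. Each run is the 250 bases before the start site, 5′ to 3′ on the gene's strand. Igf2r lies at chr17:12769707-12769956 (minus strand), Igfbp4 at chr11:99040994-99041243 (plus strand), Igfbp5 at chr1:72874866-72875115 (minus strand) and Igfbp7 at chr5:77408046-77408295 (minus strand). Capitals mark matches to ACGTGG, the core of XBP1-bound elements, to the E-box CACGTG, or to the TATA box TATAAA.
Igf2r: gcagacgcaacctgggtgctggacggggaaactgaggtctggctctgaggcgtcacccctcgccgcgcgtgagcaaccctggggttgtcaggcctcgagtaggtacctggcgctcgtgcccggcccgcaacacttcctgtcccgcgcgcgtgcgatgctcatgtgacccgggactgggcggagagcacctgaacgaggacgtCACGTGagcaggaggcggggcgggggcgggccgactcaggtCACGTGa
Igfbp4: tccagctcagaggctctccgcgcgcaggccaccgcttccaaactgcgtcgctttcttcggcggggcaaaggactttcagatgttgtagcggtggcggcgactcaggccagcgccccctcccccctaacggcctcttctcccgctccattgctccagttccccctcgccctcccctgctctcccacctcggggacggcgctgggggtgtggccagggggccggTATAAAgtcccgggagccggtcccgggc
Igfbp5: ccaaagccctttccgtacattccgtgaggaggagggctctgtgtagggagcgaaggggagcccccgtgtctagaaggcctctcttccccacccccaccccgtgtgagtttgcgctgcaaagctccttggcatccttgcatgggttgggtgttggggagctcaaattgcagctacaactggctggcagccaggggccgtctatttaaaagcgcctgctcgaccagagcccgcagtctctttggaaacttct
Igfbp7: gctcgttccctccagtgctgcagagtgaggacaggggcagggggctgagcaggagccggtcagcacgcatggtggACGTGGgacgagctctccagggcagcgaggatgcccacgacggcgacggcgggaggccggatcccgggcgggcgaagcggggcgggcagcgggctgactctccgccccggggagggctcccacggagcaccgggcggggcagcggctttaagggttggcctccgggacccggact

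Matches were sought on both strands. In Igf2r the E-box occurred from 48 to 43 and again from 7 to 2 bases before the start, and 6.02% of all 32851 upstream windows held at least 1. In Igfbp4 the TATA box lay 28 to 23 bases before the start (12.4% of all windows), and in Igfbp7 the ACGTGG core lay 175 to 170 bases before it (6.91% of all windows). The Igfbp5 window held none of these letters. Matches also occurred in members that were not tested. Igfbp2 held an E-box 142 to 137 bases before 1 of its start sites, and Igfbp6 a reverse TATA box 148 to 143 bases before the start. The longer unfolded protein response element TGACGTGG (0.563% of all windows), which contains the core, and the ER stress element (0.113%), a CCAAT box spaced from a CCACG box, matched in none of the 14 windows of the 10 members. The windows of Igf2r, Igfbp4 and Igfbp7 had a GC content of 69.2%, 69.2% and 74%, that of Igfbp5 58.8%, and the median over all windows was 52.4%. A match to such short letters is a description, not a binding site.

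Of the 10 members 4 were called different between the groups, 2 were not called and 4 were not tested. Igf2r rose in XKO, and Igfbp4, Igfbp5 and Igfbp7 fell. Igf1 and Igf1r were not called. Igf2, Igfbp2, Igfbp3 and Igfbp6 had too few reads for the filter on low counts, which left 6 of the 10 members. Over all 14333 genes tested, 14% were called at an adjusted p under 0.05, 6% higher and 7.99% lower (edgeR quasi-likelihood test, Benjamini-Hochberg adjustment), and of the 6 tested members 1 was called higher and 3 were called lower. In numbers 860 genes were higher and 1145 lower, a split that became 1158 higher and 749 lower with scaling by library size alone, under which the same 1 and 3 members were called. The values of XKO and XWT did not overlap for 4 of the 6 tested members, the called ones, while 36.1% of all tested genes had values that did not overlap. Those of Igfbp3, which was not tested, did not overlap either. Igfbp5 passed the filter only through its XWT libraries, so its presence among the tested genes is itself tied to its difference. The median log2 fold change of the 6 tested members was -0.33, beside 0.00 over all tested genes. This median counts Igfbp5 (-4.15), and the middle value of the tested members without it was that of Igf1r (-0.05).

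**Figure D1:**
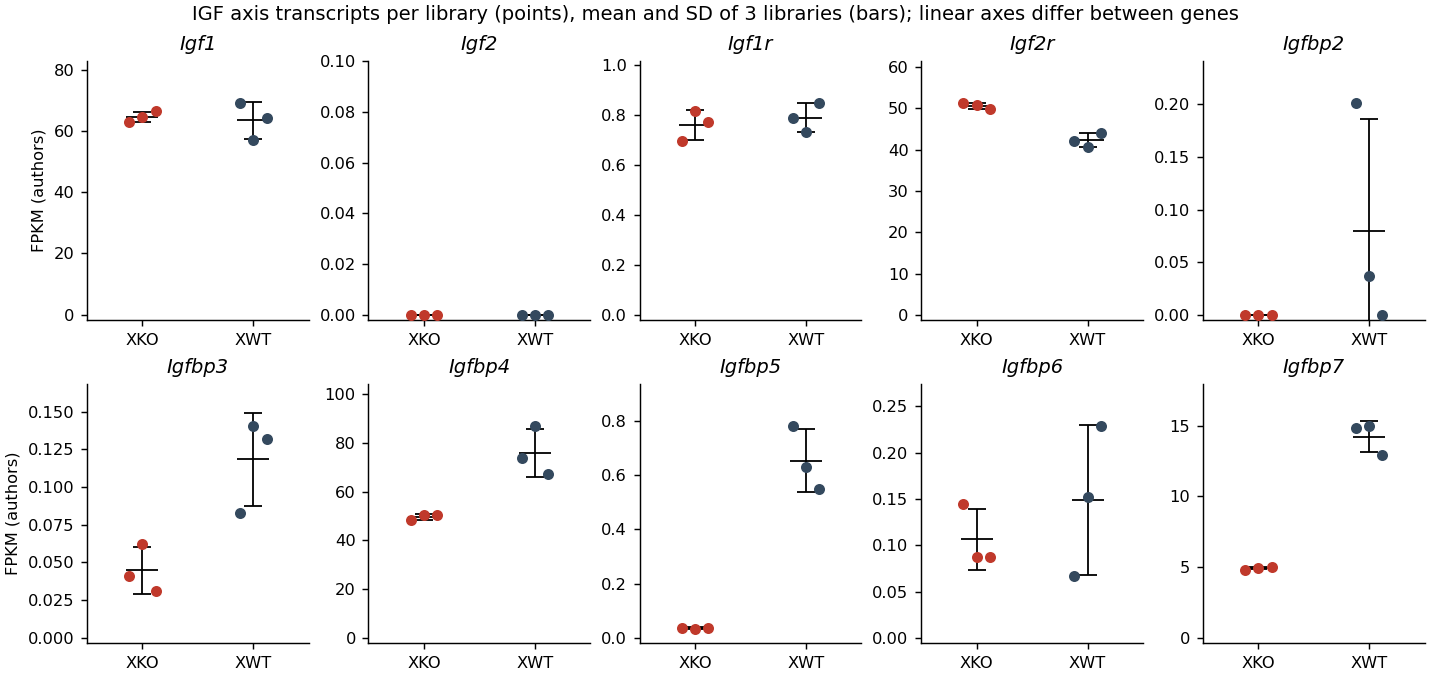
FPKM (authors' values, linear axes that differ between genes) of the 10 IGF axis genes in each library, XKO in red and XWT in dark blue, with the mean and SD of 3 libraries, the SD bar of Igfbp2 being cut at the axis. Igfbp4, Igfbp5 and Igfbp7 lie lower and Igf2r higher in all 3 XKO libraries than in any XWT library, Igf1 and Igf1r overlap, and Igf2 is at 0 throughout.

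Among the ligands, Igf1 was the only one with counted reads. The gene (ENSMUSG00000020053, chromosome 10 from 87858265 to 87937042, plus strand) had 626, 641 and 661 CPM in XKO 1 to 3, against 683, 563 and 641 CPM in XWT 1 to 3. The XKO values all lay inside the XWT range. On the log2 scale the difference was 0.03 (standard error 0.076, 95% interval -0.13 to 0.19, edgeR adjusted p = 0.813). Changes of the size seen for Igfbp4 in either direction lie outside this interval. The sign of the Igf1 estimate turned without XWT 2 (-0.043). Igf1 lies on the strand opposite to Igf1os, with which it shares 0 exonic bases and which had 10 to 28 counts in XKO and 22 to 40 counts in XWT.

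Igf2 (ENSMUSG00000048583, chromosome 7 from 142650766 to 142666816, minus strand), the fetal growth factor gene, had 0 counts in all 6 libraries, as did the overlapping genes Gm49394, Igf2os and Mir483. Gm49394 lies on the same strand and shares 3596 of the 5723 exonic bases of Igf2. The counting program is not known, so reads from the shared bases may have been assigned to neither gene. A count of 0 allows a level of up to 0.0966 to 0.0979 CPM in the XKO libraries and up to 0.096 to 0.111 CPM in the XWT libraries. These limits cover counting error only, and not reads left unassigned in the bases shared with Gm49394. The cells had been kept in medium from hepatocytes, and of 10 hepatocyte markers 8 were at 0 in every library, among them Alb (serum albumin), Ttr and Apoa1. The remaining hepatocyte markers summed to 3.33 to 3.48 CPM in XKO and 4.85 to 7.79 CPM in XWT. Of the 2 that were tested, Trf (transferrin) fell by 0.86 on the log2 scale, a call that ended without XKO 1 (adjusted p = 0.0516) or XKO 3 (0.0621), and 1 was not called (list median -0.81). Over all tested genes 7.99% were lower. Igfbp1, the binding protein gene typical of liver, had 0 counts in all 6 libraries as well.

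Of the receptor genes, Igf2r (ENSMUSG00000023830, chromosome 17 from 12682406 to 12769664, minus strand) rose. It had 479, 476 and 466 CPM in XKO 1 to 3, against 393, 377 and 414 CPM in XWT 1 to 3. All 3 XKO values lay above all 3 XWT values, and the difference was modest. The estimate was a log2 fold change of 0.26 (standard error 0.064, 95% interval 0.13 to 0.40, edgeR adjusted p = 0.016). The call ended without XKO 1 (0.25, adjusted p = 0.1), XKO 2 (0.26, adjusted p = 0.103) or XKO 3 (0.27, adjusted p = 0.075), with the estimate close to the full one each time. Airn, the antisense RNA that overlaps Igf2r and shares 0 exonic bases with it, had 256, 302 and 265 counts in XKO and 154, 134 and 252 counts in XWT (log2 fold change 0.54, adjusted p = 0.0605, not called, and 0.0432 in the authors' deposited table). The strand setting of the counting is not known, so reads of Igf2r and Airn may not be separated, but the Airn counts were small beside the 10584 to 14871 counts of Igf2r.

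Igf1r (ENSMUSG00000005533, chromosome 7 from 67952827 to 68233668, plus strand) had 11.8, 13.8 and 13.0 CPM in XKO 1 to 3, against 13.2, 12.3 and 14.3 CPM in XWT 1 to 3. The groups overlapped. The log2 difference was -0.05 (standard error 0.105, 95% interval -0.27 to 0.18, edgeR adjusted p = 0.79). Its sign turned with scaling by library size alone (0.018) and without XKO 1 (0.011) or XWT 3 (0.0098). Per length, Igf1r was low in both groups, at 0.762 ± 0.060 FPKM in XKO and 0.790 ± 0.056 FPKM in XWT (SD, n = 3 each). The related insulin receptor gene Insr stood at 4.14 ± 0.047 FPKM in XKO and 4.02 ± 0.305 FPKM in XWT, and it was not called either (log2 fold change 0.05, adjusted p = 0.702).

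The binding protein genes accounted for all falls among the members. Igfbp4 (ENSMUSG00000017493, chromosome 11 from 99041244 to 99054392, plus strand), whose product is known mainly as an inhibitor of IGF action, had 215, 223 and 223 CPM in XKO 1 to 3, against 326, 382 and 299 CPM in XWT 1 to 3. The XKO libraries lay close together and below every XWT library. Igfbp4 was 1.52-fold lower, with a log2 fold change of -0.61 (standard error 0.083, edgeR adjusted p = 0.000295).

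Igfbp7 (ENSMUSG00000036256, chromosome 5 from 77349240 to 77408041, minus strand) encodes a secreted protein of vessels and stroma that binds IGFs weakly. It had 5.86, 6.01 and 6.10 CPM in XKO 1 to 3, against 17.9, 18.01 and 15.8 CPM in XWT 1 to 3. The groups were well apart, and Igfbp7 was 2.87-fold lower (log2 fold change -1.52, standard error 0.106, edgeR adjusted p = 4.26e-07). Igfbp7 shares 85 exonic bases with Polr2b on the opposite strand, a gene with 2382 to 2478 counts in XKO and 2178 to 2443 counts in XWT, so a few reads at that end could belong to either gene.

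Igfbp5 (ENSMUSG00000026185, chromosome 1 from 72857932 to 72874884, minus strand), a binding protein of matrix-producing cells, had 7, 6 and 7 counts in XKO 1 to 3, against 126, 112 and 104 counts in XWT 1 to 3. These were 0.225, 0.195 and 0.228 CPM in XKO and 4.67, 3.77 and 3.33 CPM in XWT. Every XKO library was far below every XWT library, although the level in XWT was itself low and the value in XKO was limited by depth. Igfbp5 was 17.8-fold lower (log2 fold change -4.15, standard error 0.283, 95% interval -4.76 to -3.54, edgeR adjusted p = 3.44e-07). It ranked as number 21 of 14333 tested genes when these were ordered from the lowest log2 fold change. Igfbp4, Igfbp5 and Igfbp7 were called lower under all 15 alternatives, those that left out a library included.

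**Figure D2:**
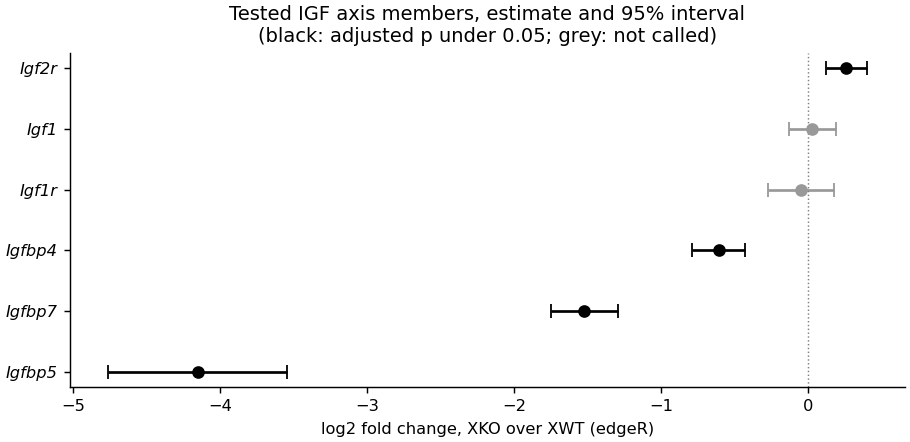
Log2 fold change of XKO over XWT (edgeR) with its 95% interval for the 6 IGF axis genes that passed the filter, black where the adjusted p was under 0.05 and grey where it was not. The intervals of Igfbp5 (-4.76 to -3.54), Igfbp7 (-1.75 to -1.29) and Igfbp4 (-0.79 to -0.43) do not overlap each other, Igf2r lies above 0, and Igf1 and Igf1r span 0.

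The other binding protein genes were near the limit of detection. Igfbp3 (chromosome 11 from 7206086 to 7213923), whose product carries most circulating IGF, had 4, 6 and 3 counts in XKO 1 to 3, against 7, 13 and 13 counts in XWT 1 to 3. The groups did not overlap, but without the filter on low counts its adjusted p was 0.184 (log2 fold change -1.39). Igfbp6 (chromosome 15 from 102144362 to 102149511), which prefers IGF2, had 5, 3 and 3 counts in XKO and 2, 5 and 8 counts in XWT, and the groups overlapped. Igfbp2 (chromosome 1 from 72824503 to 72852474) had 0 counts in each XKO library, against 10, 2 and 0 counts in XWT 1 to 3. XWT 3 thus matched the XKO libraries, and the calls went apart between tools: the adjusted p was 0.0357 in edgeR without a filter and 1 in the authors' deposited table. No fold is given for Igfbp2, since most of its reads came from XWT 1. Igfbp2 and Igfbp5 are neighbours on chromosome 1, with 5457 bases and 0 annotated genes between them.

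Levels of different genes can be set beside each other only per length, for which the authors' FPKM values were used. In XKO the order was Igf1 (64.6 ± 1.71 FPKM), Igf2r (50.6 ± 0.771), Igfbp4 (49.6 ± 1.08), Igfbp7 (4.93 ± 0.098) and Igf1r (0.762 ± 0.060), followed by Igfbp6, Igfbp3 and Igfbp5 at 0.106, 0.0447 and 0.0358 FPKM and by Igfbp2 and Igf2 at 0. In XWT it was Igfbp4 (75.9 ± 9.99 FPKM), Igf1 (63.4 ± 6.01), Igf2r (42.3 ± 1.75), Igfbp7 (14.2 ± 1.11), Igf1r (0.790 ± 0.056) and Igfbp5 (0.653 ± 0.116), followed by Igfbp6, Igfbp3 and Igfbp2 at 0.149, 0.118 and 0.0792 FPKM and by Igf2 at 0 (SD, n = 3 each). The ranges of Igf2r and Igfbp4 overlapped in XKO, and in XKO 3 Igfbp4 (50.2 FPKM) was above Igf2r (49.8 FPKM). The ranges of Igf1 and Igfbp4, and of Igf1r and Igfbp5, overlapped in XWT. Within each XWT library, however, Igfbp4 was above Igf1, and Igf1r was above Igfbp5. Igfbp4 was thus the highest of the 10 members on average in XWT, whereas in XKO both Igf1 and Igf2r averaged above it.

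Summed over the 6 binding protein genes, the XKO libraries held 53.4, 55.4 and 55.4 FPKM, against 89.8, 103 and 80.9 FPKM in the XWT libraries. The sums averaged 54.7 ± 1.14 FPKM in XKO and 91.1 ± 10.9 FPKM in XWT (SD, n = 3 each), and the ratio of the means was 0.601. The groups did not overlap, and the exact two-sided permutation test gave p = 0.1, the smallest that 3 against 3 libraries allow. Igfbp4 made up 90.6% ± 0.096 of the sum in XKO and 83.2% ± 1.16 in XWT, and Igfbp7 made up 9.01% ± 0.069 in XKO and 15.7% ± 0.999 in XWT (SD, n = 3 each). Igfbp5 held 0.0655% of it in XKO and 0.720% in XWT. The largest fold change among the members therefore moved a small part of the binding protein transcripts. The ratio of Igf1 to Igfbp4 FPKM was 1.30, 1.28 and 1.32 in XKO 1 to 3, against 0.934, 0.658 and 0.957 in XWT 1 to 3. These ratios did not overlap (exact two-sided permutation test, p = 0.1, again the smallest possible), and they concern transcripts, not protein. As Igf1 was not called, the ratio largely restates the fall of Igfbp4 and is no separate result.

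**Figure D3:**
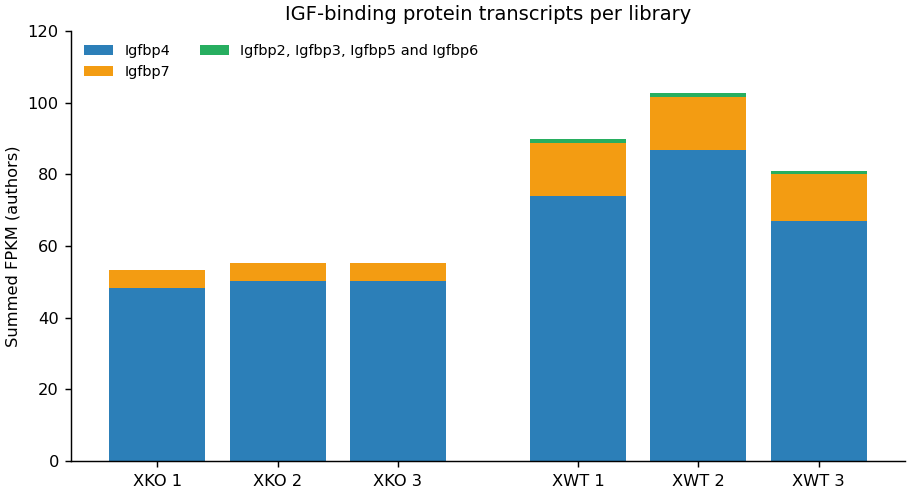
Summed FPKM (authors' values) of the binding protein genes in each library, XKO 1 to 3 on the left and XWT 1 to 3 on the right, with Igfbp4 in blue, Igfbp7 in orange and the other 4 genes in green. The XKO bars reach 53.4 to 55.4 FPKM and the XWT bars 80.9 to 103 FPKM, and Igfbp4 is the largest part of every bar.

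Markers of fibroblasts and other stromal cells fell between the same groups. Of 15 such markers, 12 were tested and all 12 of these fell (median log2 fold change -3.11, range -4.20 to -1.30), where 7.99% of all tested genes were lower. Pdgfra, Dcn and Fbln1 passed the filter only through XWT, so their place among the 12 is tied to their falls. The summed level of the 15 genes was 71.2 to 86.2 CPM in XKO and 702 to 811 CPM in XWT, and none was at 0 in all libraries. Of the untested ones, Tagln had 10, 5 and 7 counts in XKO 1 to 3 and 16, 5 and 7 counts in XWT 1 to 3, with overlap. Lum had 0 counts in each XKO library and 1, 0 and 0 in XWT, and Thy1 had 0, 0 and 1 in XKO and 1, 4 and 2 in XWT. Sparc, a matrix glycoprotein gene, averaged 8.62 ± 1.28 CPM in XKO and 94.8 ± 1.09 CPM in XWT (SD, n = 3 each), and Col1a2 (log2 fold change -3.36), Col3a1 (-3.87) and Acta2, collagen and smooth muscle actin genes, fell as well. The log2 fold change of Igfbp5 (-4.15) was lower than that of every tested stromal marker but Pdgfra (-4.20), that of Igfbp7 (-1.52) lay between Pdgfrb (-2.06) and Mmp2 (-1.30), and that of Igfbp4 (-0.61) was closer to 0 than all of them. Within XWT, the library with the highest Igfbp5 level, XWT 1 at 4.67 CPM, had the lowest stromal sum (702 CPM), and XWT 3, with the lowest Igfbp5 level at 3.33 CPM, had the highest (811 CPM). Col1a1 and Col1a2 averaged 277 and 187 CPM of this sum in XWT, and the order over 3 libraries was not tested. The single markers did not all share the order of the sum. Over XWT 1 to 3, Col1a1 had 242, 283 and 305 CPM, whereas Acta2 had 56.7, 52.2 and 48.3 CPM. The part of stromal cells in the falls of the binding protein genes was not tested, and in bulk samples fewer cells of a type cannot be told apart from less RNA per cell.

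Markers of other cell types were also followed, beside shares of 6% higher and 7.99% lower over all tested genes. Of 10 endothelial markers 5 were tested (median 0.27), and 1 fell, Pecam1 (-0.54, not called without XKO 2 at an adjusted p of 0.0682), which macrophages also express. The endothelial sum was 93.6 to 100 CPM in XKO and 88.4 to 96.1 CPM in XWT, of which Vwf alone averaged 86.0 CPM in XKO and 78.7 CPM in XWT. Cdh5, the endothelial cadherin gene, averaged 0.508 CPM in XKO and 0.419 CPM in XWT. Of 10 neutrophil markers 8 were tested, 7 rose and 1 was not called (median 0.92). They included Mmp8 (0.78), Ltf (1.54), Lcn2 (0.95) and S100a8 (0.90), genes of granule and secreted proteins. Camp, another of the 7, passed the filter only through XKO, where it was higher, and its adjusted p in the authors' deposited table was 0.11. The summed level of the 10 neutrophil markers was 61.2 to 65.0 CPM in XKO and 30.8 to 39.8 CPM in XWT, with Ly6g at 0 in all libraries. The part of these cell types in the results on the members was not tested.

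Genes around the release of IGFs were taken as 1 list of 12, which holds proteases, their stanniocalcin inhibitors and further binding or complex proteins. The 5 tested genes were all proteases, of which 3 fell and none rose (median -0.48), where 6% of all tested genes were higher and 7.99% lower. Most of the list's level came from Adam9, which averaged 257 CPM in XKO and 228 CPM in XWT. It was not called (log2 fold change 0.18, edgeR adjusted p = 0.102), but its groups did not overlap. The sum over the 12 genes was 254 to 271 CPM in XKO and 230 to 260 CPM in XWT, so it did not fall with the called genes. Pappa, the gene of pappalysin-1, which cleaves IGFBP4, had 15, 14 and 14 counts in XKO 1 to 3, against 58, 66 and 79 counts in XWT 1 to 3 (log2 fold change -2.30, standard error 0.265, edgeR adjusted p = 5.86e-05). Adam12, a metalloprotease reported to cleave IGFBP3 and IGFBP5, had 6, 5 and 6 counts in XKO, against 55, 53 and 43 counts in XWT (-3.20, standard error 0.359, adjusted p = 4.69e-05). Both were thus low in XWT and lower still in XKO, and Adam12 passed the filter only through XWT. The secreted protease gene Htra1 had 194, 186 and 189 counts in XKO, against 228, 250 and 276 counts in XWT (-0.48, adjusted p = 0.0159). In this list 1 gene was called higher with scaling by library size alone or without XWT 3. The Htra1 call ended without XKO 1 (adjusted p = 0.0679), XKO 2 (0.0874) or XKO 3 (0.0695).

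Downstream of the receptors, insulin and IGF signalling was followed through 30 genes, of which 28 were tested (list median 0.01). Where 6% of all tested genes were higher and 7.99% lower, 1 of the 28 rose, 5 fell and 22 were not called. The largest falls were in adaptors of the receptor. Grb10, which dampens insulin and IGF signalling, had 19, 27 and 26 counts in XKO 1 to 3, against 174, 163 and 200 counts in XWT 1 to 3 (log2 fold change -2.97, standard error 0.201, edgeR adjusted p = 3.34e-07). Irs1, the docking protein gene insulin receptor substrate 1, had 2, 1 and 2 counts in XKO, against 21, 15 and 17 counts in XWT (-3.39, standard error 0.562, adjusted p = 0.00135), and passed the filter only through XWT. Irs2 was higher than Irs1 per length, at 1.86 ± 0.188 FPKM in XKO and 1.62 ± 0.167 FPKM in XWT against 0.00588 ± 0.0020 FPKM and 0.0665 ± 0.016 FPKM for Irs1 in XKO and XWT (SD, n = 3 each), and was not called (0.20, adjusted p = 0.257).

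Smaller changes concerned kinases and transcription factors of the pathway. Foxo3, a transcription factor gene restrained by AKT, fell by 0.36 on the log2 scale (edgeR adjusted p = 0.00696), a call lost without XKO 2 (adjusted p = 0.07). Akt2 (-0.26, adjusted p = 0.035) and the regulatory subunit gene Pik3r2 (-0.23, adjusted p = 0.0446) also fell. Rps6kb1, the gene of the S6 kinase, rose by 0.37 (adjusted p = 0.0296), and of the fits that left out 1 library, the fit without XWT 3 was the only one to keep this call. The 5 falls became 3 without XKO 1, XKO 3 or XWT 2, or with scaling by library size alone, and 2 without XKO 2, while the 1 rise became 0 in each fit that left out a library other than XWT 3, and 2 without XWT 3 or with library size alone.

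Genes that control IGF genes or their RNA formed a list of 11. Of these 7 were tested, 1 rose and none fell (median 0.04), where 6% of all tested genes were higher and 7.99% lower. H19, which was not tested, was called lower without a filter (edgeR adjusted p = 0.024). Jak2, the kinase of growth hormone receptor signalling, rose by 0.24 on the log2 scale (edgeR adjusted p = 0.0427), a call lost in each fit that left out a library other than XWT 3 (adjusted p of 0.0564 to 0.191). The count of rises here was 2 with DESeq2, limma-voom with or without library quality weights, no filter, the replicate block, the authors' deposited table or without XWT 3. Igf2bp2 and Igf2bp3, whose products bind Igf2 RNA among others, were not called (log2 fold changes 0.11 and 0.04). Genes of mannose 6-phosphate sorting, the route of the Igf2r product, formed a list of 13. All 13 were tested, with 1 higher, none lower and a median of 0.03, beside the same shares over all tested genes. Their summed level was 1991 to 2005 CPM in XKO and 1848 to 1940 CPM in XWT, without overlap. Gnptab, which encodes the enzyme that makes the mannose 6-phosphate tag, rose by 0.24 (adjusted p = 0.032), a call lost in each fit that left out an XKO library or XWT 2 (adjusted p of 0.0712 to 0.154). The second receptor of this route, M6pr, had a log2 fold change of 0.15 (adjusted p = 0.11). The 1 rise in this list became 3 with scaling by library size alone or without XWT 3.

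**Figure D4:**
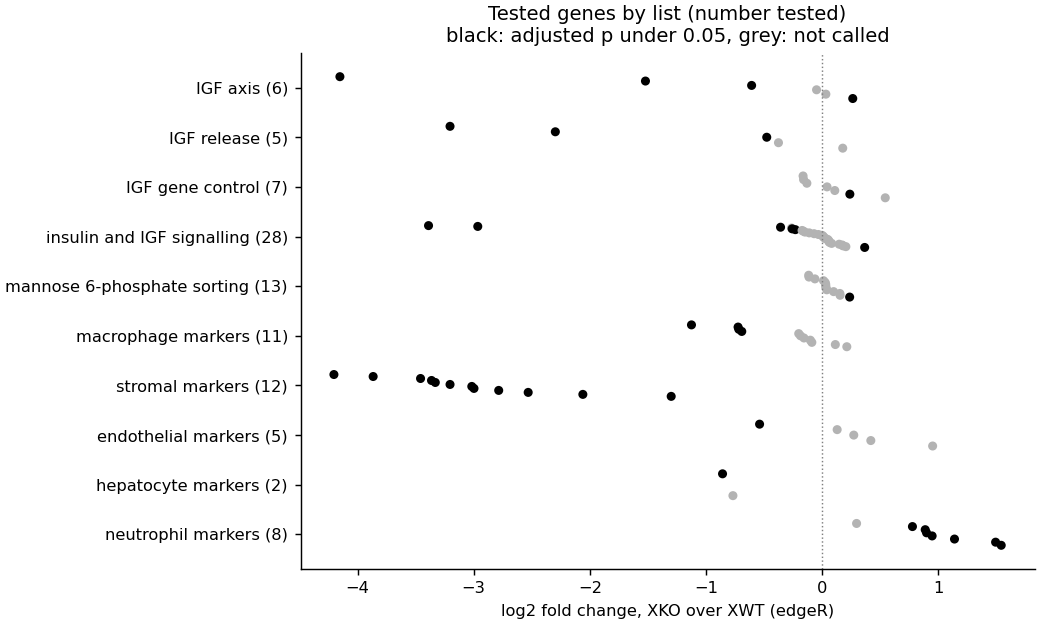
Log2 fold change of XKO over XWT (edgeR) of each tested gene, by list, with the number tested in brackets, black where the adjusted p was under 0.05 and grey where it was not. The stromal markers lie from -4.20 to -1.30, and the signalling and sorting genes lie near 0 apart from Grb10 (-2.97) and Irs1 (-3.39).

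The genes whose levels followed each tested member most closely over the 6 libraries were found by Pearson's correlation of log2 CPM among protein-coding genes of at least 5 CPM. These are descriptions over 6 libraries that share the difference between the groups. Igfbp5 was followed most closely by Bgn (r = 0.999), the matrix proteoglycan biglycan, and Loxl2 (r = 0.999), a lysyl oxidase of the matrix. Igfbp7 was followed by Creb3l2 (r = 0.999), a membrane-bound transcription factor gene, and Nxpe5 (r = 0.997), and Igfbp4 by Eci1 (r = 0.997) and Galnt10 (r = 0.997). Igf2r was followed by Urb1 (r = 0.999) and Mfsd7a (r = 0.999). Igf1, whose groups overlapped, was followed by Fam45a (r = 0.996) and Filip1l (r = 0.996), and Igf1r by Rammet (r = 0.988) and Sgcb (r = 0.975).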

How the data were processed

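Total RNA of 6 macrophage samples went into NEBNext libraries, per the labels' protocols, and samples were grouped by title. The submitters' processing notes list Bowtie 0.12.2 and the builds mm8 and mm10 without a role, and no source used here names the counting program or strand setting. The authors deposited whole-number counts per Ensembl gene, FPKM values, group means as a scaled signal, and for XKO over XWT a log2 fold change and its p-value, per the file headers.

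The counts were tested with edgeR 4.0.16 in R 4.3.3. Its filterByExpr step kept 14333 of 54532 genes, TMM scaled the libraries, and the quasi-likelihood test with robust dispersion set XKO against XWT. Benjamini-Hochberg adjustment ran over all tested genes, with calls under 0.05. A standard error is the size of the log2 difference over the root of the F statistic. FPKM were described, summed or divided. The biological coefficient of variation was 0.0865. Limits for a count of 0 use 3 counts per library. Sequence windows and their motifs were chosen after values were seen.

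The members and the other 9 gene lists were chosen with earlier results of these data known. Names follow a rule: all members, up to 4 called genes per list by smallest p (2 where none was called), Xbp1, and the 2 genes most correlated with each tested member. Akt2, Pik3r2, Pdgfra, Pdgfrb, Dcn, Fbln1, Mmp2, Col1a1, Tagln, Lum, Thy1, Adam9, Vwf, Cdh5, Camp, Insr, Irs2, M6pr, Airn, Igf2bp2 and Igf2bp3 were added after values were seen. Alternatives were RLE or library-size scaling, no filter or at least 1 CPM in 3 libraries, DESeq2 1.42.0, limma-voom 3.58.1, a replicate block and leaving out each library. Library quality weights and the authors' deposited table were added after the data were seen.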

Additional observations from a re-analysis of the deposited data

How the results depend on the processing

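The 3 falls among the members kept their direction and call under all 15 alternatives (4 falls without a filter, with Igfbp2), with log2 fold changes of -0.69 to -0.51 for Igfbp4, -4.26 to -4.01 for Igfbp5 and -1.58 to -1.45 for Igfbp7. The 1 rise, Igf2r, ranged from 0.23 to 0.33 and became 0 rises without any 1 XKO library. Igf1 reversed without XWT 2 (-0.043), and Igf1r reversed with library size alone (0.018) and without XKO 1 (0.011) or XWT 3 (0.0098), none of them called, with leave-one-out ranges of -0.043 to 0.092 and -0.10 to 0.011. Over all genes, 860 rose and 1145 fell, with leave-one-out ranges of 274 to 2073 and 532 to 2164, and library size alone gave 1158 higher and 749 lower. Leaving out a library lowers the residual degrees of freedom, and the cause of the shifts was not tested. The summed binding protein FPKM had a log2 ratio of -0.74, -0.73 from counts, -1.57 without Igfbp4 and -0.81 to -0.64 with a library left out. Same-numbered libraries did not deviate together (correlations of -0.0425, -0.0359 and -0.0543, with no library closest to its own number). The labels do not say whether they share an animal or culture, and these correlations cannot decide it. A replicate block gave 1068 higher and 1127 lower genes and the same 1 rise and 3 falls among the members. Genes under about 10 counts per library, Igfbp2, Igfbp3 and Igfbp6 here and Igfbp5 in XKO, are limited by depth.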

Other observations

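Some genes around the axis did not pass the filter on low counts and are given as counts. They were picked after their values were seen, as those whose groups did not overlap. That their groups lie apart thus follows from the choice, and their shared direction was not tested. The groups of Pappa2, Stc1, Igfals, Igfbpl1 and Igf2bp1 overlapped. H19, the imprinted non-coding neighbour of Igf2, had 1, 1 and 0 counts in XKO 1 to 3, against 10, 6 and 6 counts in XWT 1 to 3, in libraries where Igf2 was at 0. Its adjusted p was 0.024 in edgeR without a filter and 0.0721 in the authors' deposited table. Stc2, the gene of a stanniocalcin that inhibits pappalysins, had 2, 4 and 0 counts in XKO, against 22, 10 and 17 counts in XWT, and it was lower in the authors' deposited table (log2 fold change -3.13, adjusted p = 0.00798) and in edgeR without a filter (-3.04, adjusted p = 0.000266). Ghr, the growth hormone receptor gene, had 7, 7 and 5 counts in XKO, against 9, 9 and 27 counts in XWT, with the highest value in XWT 3 and an adjusted p of 0.249 in the authors' deposited table. Grb14, a relative of Grb10, had 0, 1 and 1 counts in XKO, against 5, 4 and 2 counts in XWT. Counting error is large at these levels.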
